A study of Drosophila melanogaster with 12 samples.

Results

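Digestive enzymes of the Jonah, trypsin, maltase, amylase and lysozyme families were followed in fly heads that expressed the human peptide Abeta42 in neurons. These genes were taken by symbol: Jonah proteases other than the Jon65A genes, trypsins whose symbols end in Try, the Mal-A and Mal-B maltases, *Amy-p* and *Amy-d*, and lysozymes named Lys with 1 capital letter. The choice gave 38 of the 14162 genes counted, of which 21 were proteases (11 Jonah genes and 10 trypsins), 11 were sugar enzymes (9 maltases and 2 amylases) and 6 were lysozymes. Enough counts for a test were found for 18 of the 38, namely 8 proteases, 8 sugar enzymes and 2 lysozymes.

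The study compared 4 groups of 3 libraries, each made by poly(A) RNA-seq from pooled heads of mated females kept at 29 °C. Control flies (*nSyb*>w1118) carried the driver nSyb-Gal4, which is active in all neurons, without a transgene to drive. AD flies (*nSyb*>Abeta42) expressed the Arctic form of human Abeta42, a model of Alzheimer's disease (AD). AD + Yip7 flies (*nSyb*>Abeta42+yip7) also expressed the fly serine protease Yip7, and AD + Yip7∆S flies (*nSyb*>Abeta42+yip7_S) expressed Yip7 without its putative transmembrane stretch near the N-terminus. The driver was thus shared by every group and Abeta42 by the last 3. No group carried Abeta42 with an unrelated extra transgene. The Yip7 proteins and the added transgene itself thus cannot be told apart in comparisons with AD. Control had no driven transgene at all, so Abeta42 and a driven transgene as such cannot be told apart in AD vs. Control. The labels give an age of 10 days, except for Control replicate 3, which they call 2 weeks old, and they give the tissue as head while the descriptions speak of dissected brains.

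Flies digest protein, starch and sugar in the midgut. Its absorptive cells secrete trypsins and chymotrypsin-like proteases, among them the Jonah proteins. Amylase cuts starch into maltose, which maltases split into glucose, and lysozymes break bacterial cell walls, in the fly gut mostly those of bacteria taken up with food. Most members of these families sit in short clusters of related genes, and the gut is where they are chiefly transcribed.

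Libraries held between 38064884 and 41737332 counts. Levels are given as CPM (counts scaled to a common library total) after TMM normalization, and 3 counts in a library corresponded to 0.0710 to 0.0795 CPM. Of all counts, the 38 genes together took 0.0235% to 0.0337% in Control, 0.122% to 0.160% in AD, 0.0388% to 0.0828% in AD + Yip7 and 0.0447% to 0.0678% in AD + Yip7∆S. The markers of neurons, photoreceptors and glia that define a head were counted in every group. The *yip7* gene itself, outside the families chosen here, had 5.97, 0 and 6.07 CPM in Control, 157, 159 and 94.2 in AD, 135, 173 and 123 in AD + Yip7, and 73.8, 88.1 and 81.1 in AD + Yip7∆S. Its AD and AD + Yip7 levels overlapped. By comparison, *alphaTry* was below AD in every AD + Yip7 library, at 0, 15.4 and 0.441 CPM. Counts per gene do not separate the transgene from the fly's own *yip7*, and the share of each in the Yip7 groups was not tested.

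In AD vs. Control, the amylases, *alphaTry* and part of the maltases were higher in AD heads, and further proteases and *LysD* were counted almost only in AD. Of the 18 genes tested, 13 were higher and 1 was lower, while over all 10577 genes tested 14.4% were higher and 11.6% were lower by edgeR's quasi-likelihood test at an adjusted p under 0.05. The median log2 fold change was 3.71 over the 18 genes and -0.01 over all genes. By class it was 8.52 for proteases (7.03 with *betaTry* and *epsilonTry*, which had 0 counts in Control, set at their lower bound), 0.74 for sugar enzymes and 8.37 for lysozymes (6.88 with *LysP* at its bound). Among proteases 7 of 8 rose and the other 1, *iotaTry*, was not called. Among sugar enzymes 5 of 8 rose, 1 fell and 2 were not called, and among lysozymes 1 of 2 rose. These counts and medians carry a condition. Outside AD, 8 of the 18 genes were over the filter level of 0.244 CPM in fewer than 3 libraries. They thus entered the test through high AD libraries, and their difference from Control was largely fixed by the filter. The 8 were the proteases *Jon99Ci*, *Jon99Cii*, *Jon99Ciii*, *betaTry*, *epsilonTry* and *Jon44E* and the lysozymes *LysD* and *LysP*. *Jon44E* and *LysP* were over the level in 2 AD libraries, so each also needed 1 library of a Yip7 group. *LysP* was not called. Of the other 10 genes, 6 were higher and 1 was lower, namely *alphaTry* among 2 proteases and 5 higher and 1 lower among 8 sugar enzymes, with no lysozyme left in that set.

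**Figure D1:**
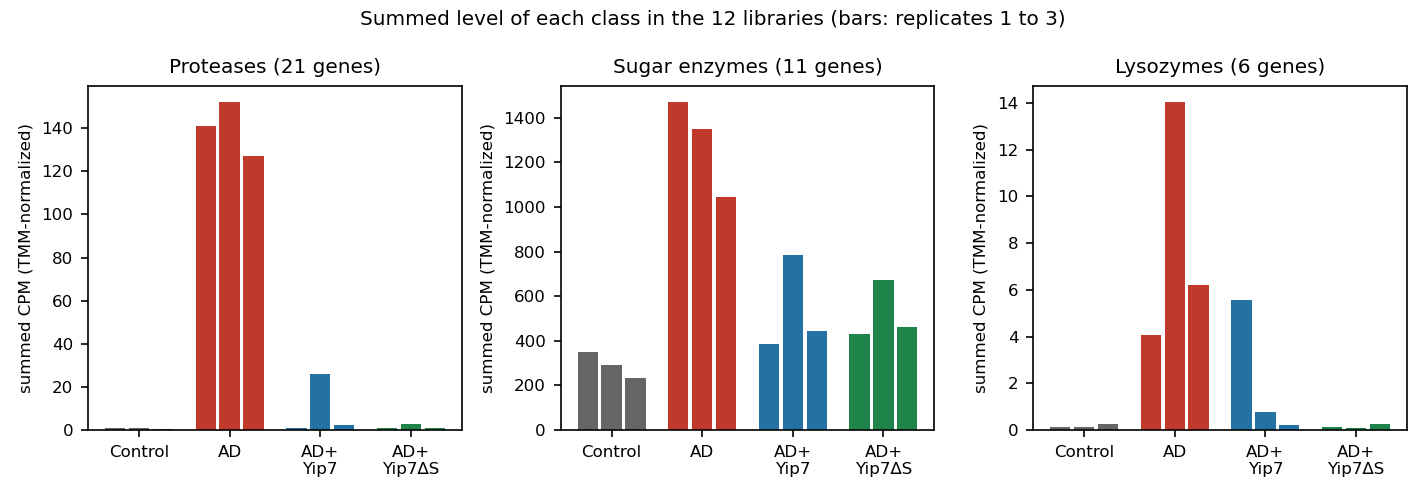
Summed level of each class in the 12 libraries (y axis, TMM-normalized CPM from 0; x axis, the 4 groups; bars, replicates 1 to 3). Proteases reached 127 to 152 CPM in the AD libraries and stayed at or below 0.820 CPM in Control, and replicate 2 of AD + Yip7, at 25.8 CPM, is the highest protease bar of the Yip7 groups.

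The trypsins gave the highest protease levels. These serine proteases cut proteins after lysine and arginine, and 10 of their genes lie side by side on chromosome 2R between 11336840 and 11357537 (dm6). *alphaTry* (FBgn0003863, 2R, 11344260 to 11345119) had 0.298, 0 and 0.0240 CPM in Control and 76.4, 60.4 and 68.6 CPM in AD. All AD libraries stood far above all Control libraries, with a log2 fold change of 9.30 (standard error 1.76, edgeR adjusted p = 0.00215). Its close neighbour *betaTry* (FBgn0010357, 2R, 11346325 to 11347395) had 0 counts in every Control library and 18.0, 24.3 and 15.5 CPM in AD. Against a floor of 3 counts over the Control group this was at least 790-fold higher (edgeR adjusted p = 0.00324). *epsilonTry*, between them, was also at 0 in Control and had 0.377, 1.63 and 0.594 CPM in AD, at least 35.6-fold higher (edgeR adjusted p = 0.00215). The AD levels of these neighbours thus differed widely. Both *betaTry* and *epsilonTry* had passed the filter only through AD, so their calls are not read as a result about the cluster.

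Not every trypsin of the cluster was called. *iotaTry*, at its far end, had 0.124, 0.242 and 0.0959 CPM in Control and 0.226, 0.247 and 0.166 CPM in AD, and the groups overlapped (log2 fold change 0.46, standard error 0.55, edgeR adjusted p = 0.571). The genes *deltaTry*, *gammaTry* and *etaTry* were too low for the test but were counted in every AD library and in no Control library. *deltaTry* had 10, 20 and 4 counts in AD, *gammaTry* 16, 10 and 1, and *etaTry* 9, 4 and 12. *deltaTry* and *gammaTry* were taken as near-identical copies, so how their reads were shared or dropped is uncertain. Their summed level in AD was 0.653, 0.742 and 0.119 CPM. *kappaTry*, *lambdaTry* and *thetaTry* had at most 5 counts in any library. Per kb of exon, mean AD levels were 79.6 CPM for *alphaTry*, 18.0 for *betaTry* and 1.05 for *epsilonTry*, against 0.261 for *iotaTry*.

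Jonah proteases are chymotrypsin-like enzymes of the gut, and 3 of the 4 tested ones form the trio at 99C on chromosome 3R between 29922216 and 29926189. *Jon99Cii* (FBgn0003356, 3R, 29923754 to 29924615) had 0.0497, 0.0242 and 0.0240 CPM in Control and 24.9, 35.9 and 22.6 CPM in AD. Control was at 1 or 2 counts a library, far from the AD range, and the log2 fold change was 9.61 (standard error 0.80, edgeR adjusted p = 3.78e-06). *Jon99Ciii* (FBgn0003357, 3R, 29922216 to 29923455) was at 0, 0.121 and 0 CPM in Control and at 18.7, 26.2 and 17.5 CPM in AD, again without overlap (log2 fold change 8.90, standard error 1.01, edgeR adjusted p = 5.24e-05). The remaining gene of the trio, *Jon99Ci*, was at a lower level, with 0.124, 0.217 and 0.0480 CPM in Control and 1.01, 2.08 and 0.927 CPM in AD (log2 fold change 3.33, standard error 0.60, edgeR adjusted p = 0.00155). AD replicate 2 was the highest library for all 3 genes. Their sequences are closely related, so how reads were shared among them is uncertain, and their summed level went from 0.0719 to 0.362 CPM in Control to 41.0 to 64.1 CPM in AD.

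Elsewhere, Jonah genes were near the limit of detection. *Jon44E* had 0, 0 and 0.0480 CPM in Control and 0.276, 0.173 and 0.523 CPM in AD (log2 fold change 4.09, standard error 1.25, edgeR adjusted p = 0.0298). That call was lost when Control replicate 1, Control replicate 2 or AD replicate 3 was left out, with an adjusted p of up to 0.0986. *Jon25Bi*, *Jon25Bii*, *Jon66Ci*, *Jon66Cii*, *Jon74E*, *Jon99Fi* and *Jon99Fii* had at most 8 counts in any library and were not tested. *Jon99Fi* and *Jon99Fii* were taken as copies of each other, so how their reads were shared or dropped is uncertain. Of the 11 Jonah genes, only the 99C trio and *Jon44E* were tested. All 4 were over the filter level in fewer than 3 libraries outside AD, so their calls were largely fixed by the filter. They are not read as a result about the family.

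**Figure D2:**
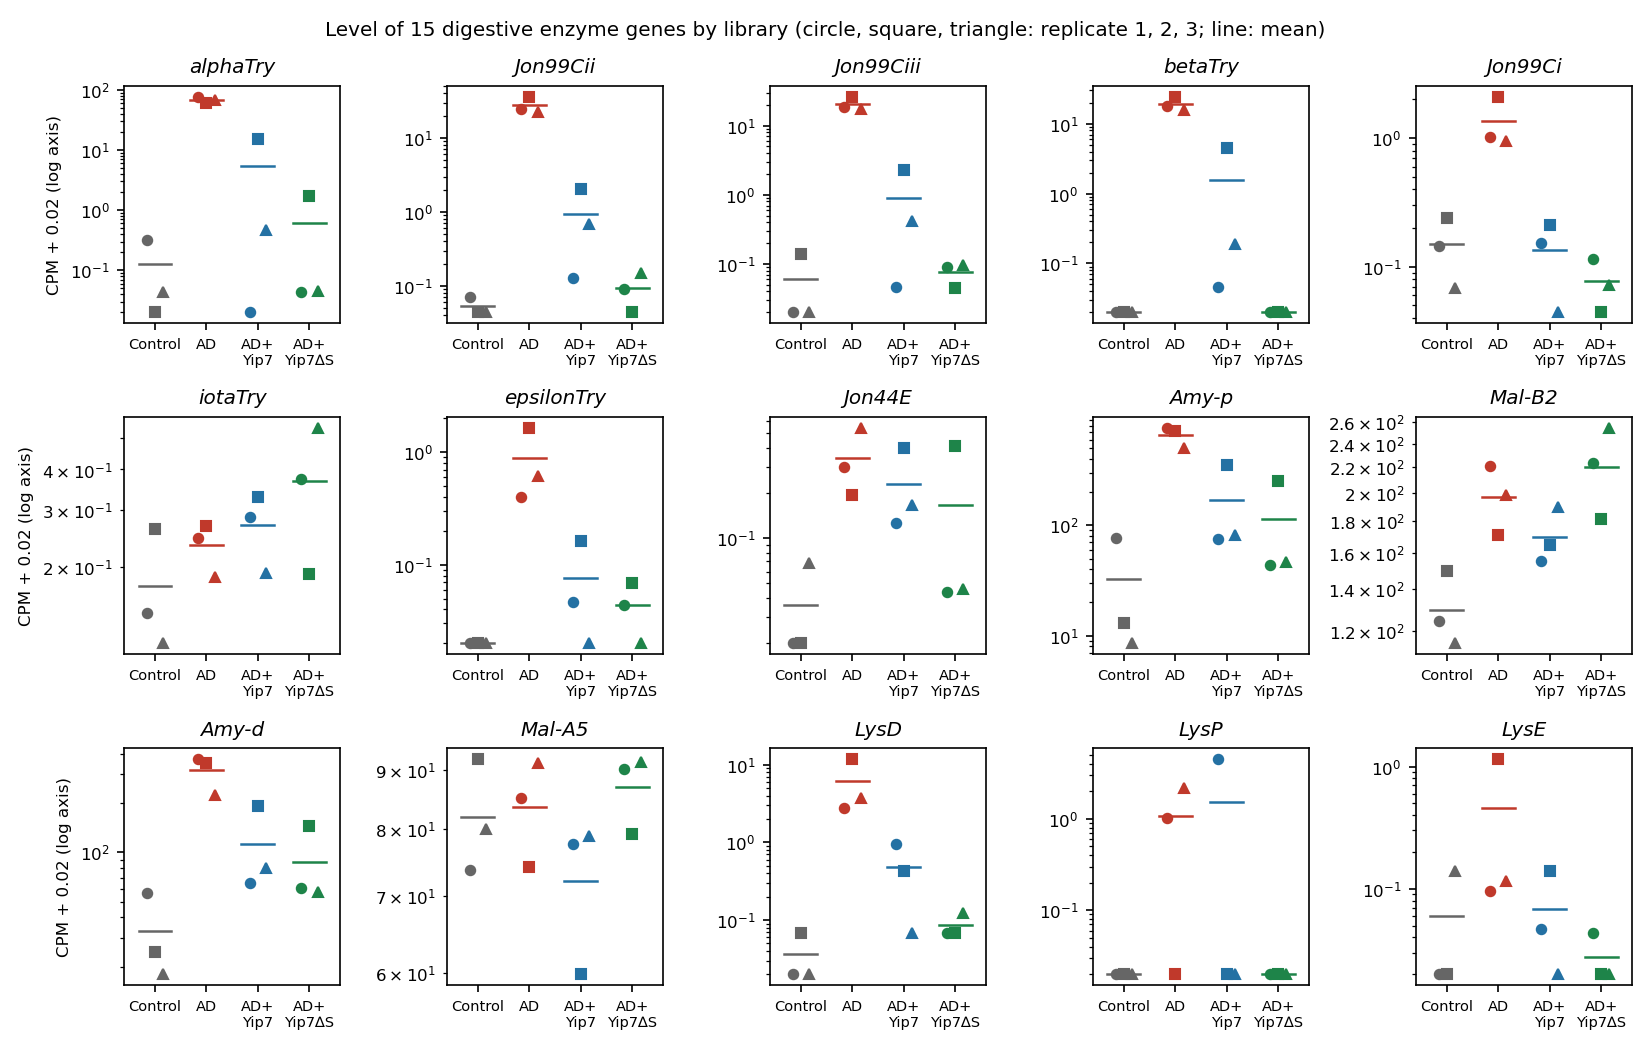
Levels of 15 genes in each library (y axis, CPM + 0.02 on a log axis, with its own range in each panel; x axis, the 4 groups; circle, square and triangle, replicates 1, 2 and 3; line, group mean). *alphaTry*, the Jon99C genes, *betaTry*, *epsilonTry*, *Amy-p*, *Amy-d* and *LysD* are highest in the 3 AD libraries, and *Mal-A5* and *iotaTry* show overlapping groups.

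Amylases carried most of the sugar enzyme counts in AD, but not in Control. *Amy-p* (FBgn0000079, 2R, 17118636 to 17120303) had 77.4, 12.9 and 8.49 CPM in Control and 770, 727 and 509 CPM in AD, a log2 fold change of 4.34 (standard error 0.98, edgeR adjusted p = 0.00628). *Amy-d* (FBgn0000078, 2R, 17124764 to 17126369) had 56.4, 24.7 and 17.9 CPM in Control and 373, 354 and 222 CPM in AD (log2 fold change 3.26, standard error 0.54, edgeR adjusted p = 0.000836). Within Control, replicate 1 stood above the other libraries for both genes, yet below every AD library. Without it, the AD groups were still called for both. The 2 genes are near-identical copies in opposite orientation, so the split of reads between them is uncertain. As their reads were counted, *Amy-p* exceeded *Amy-d* by a ratio of 2.07, 2.05 and 2.29 in AD, while *Amy-d* was the higher in Control replicates 2 and 3 (ratios 0.521 and 0.473). Summed, the pair went from 26.4 to 134 CPM in Control to 731 to 1143 CPM in AD.

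Maltases changed far less, and not all in the same direction. *Mal-B2* had 125, 150 and 115 CPM in Control and 221, 171 and 199 CPM in AD, without overlap (log2 fold change 0.60, standard error 0.15, edgeR adjusted p = 0.00933). *Mal-A5* was as abundant in Control as in AD, with 73.6, 91.9 and 80.0 CPM against 85.1, 74.2 and 91.1 CPM, and the groups overlapped (log2 fold change 0.03, standard error 0.13, edgeR adjusted p = 0.896). Both were well expressed in Control heads. Their mean Control levels per kb of exon, 55.8 CPM for *Mal-B2* and 38.9 CPM for *Mal-A5*, were above those of *Amy-d* at 20.6 CPM and *Amy-p* at 19.7 CPM. In AD this order was inverted, with 401 CPM per kb for *Amy-p* and 197 for *Amy-d* against 84.6 for *Mal-B2* and 39.7 for *Mal-A5*.

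The Mal-A genes form a cluster on 2R between 8449664 and 8473961, and its members went different ways. *Mal-A1* had 6.71, 4.47 and 5.52 CPM in Control and 8.67, 11.7 and 10.4 CPM in AD (log2 fold change 0.88, standard error 0.20, edgeR adjusted p = 0.00587). *Mal-A6* rose from 1.96, 1.30 and 2.42 CPM to 2.94, 5.76 and 3.66 CPM (log2 fold change 1.12, standard error 0.31, edgeR adjusted p = 0.0183), a call lost without Control replicate 2 or AD replicate 2. *Mal-A2* was the only tested member lower in AD. It had 0.497, 0.991 and 0.767 CPM in Control and 0.377, 0.173 and 0.0476 CPM in AD (log2 fold change -1.91, standard error 0.56, edgeR adjusted p = 0.0247). At these low counts the call was lost in 5 of 19 alternatives, among them leaving out Control replicate 2 or 3 or AD replicate 2 or 3, with an adjusted p of up to 0.0883. *Mal-B1* showed overlapping groups (log2 fold change 0.14, edgeR adjusted p = 0.669), and *Mal-A3*, *Mal-A4* and *Mal-A8* had at most 4 counts in any library. *Mal-A1*, *Mal-B1* and *Mal-B2* overlap genes on the opposite strand, as do *Mal-A8*, *Jon44E*, *deltaTry*, *LysD* and *LysP*. The strand setting of the counting is not given in the sources used here, so their counts may hold reads of the genes they overlap.

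Lysozyme genes lie together on chromosome 3L between 1194739 and 1228238, 5 of them inside the span of the gene *mwh*, and *LysD* also overlaps *LysC* on the opposite strand. *LysD* (FBgn0004427, 3L, 1210717 to 1211196), a lysozyme of the digestive tract, had 0, 0.0483 and 0 CPM in Control and 2.76, 11.9 and 3.66 CPM in AD. Every AD library was above every Control library (log2 fold change 8.31, standard error 1.10, edgeR adjusted p = 0.000173). *LysE*, a near-identical copy, was too low for the test, with 0, 0 and 5 counts in Control and 3, 46 and 4 in AD, and its groups overlapped. *LysB*, another copy, had 0, 0 and 1 counts in Control and 8, 32 and 12 in AD. AD replicate 2 was the highest library for all 3 copies. *LysX* and *LysS* had at most 7 counts in any library.

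*LysP*, the lysozyme gene that in this fly is known from the salivary gland, did not follow its neighbours. It was counted in 3 of the 12 libraries only, with 40, 0 and 90 counts in AD and 170, 0 and 0 in AD + Yip7, and with 0 counts in every library of Control and AD + Yip7∆S. The gene was thus either absent from a library or well above the floor of 3 counts, within groups as well as between them. Its AD vs. Control difference was not called (edgeR adjusted p = 0.129), and DESeq2 called it (adjusted p = 1.99e-05).

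Each AD + Yip7 and AD + Yip7∆S comparison with AD used the same 3 AD libraries, so the 2 sets of differences are not independent. Lower levels were called in AD + Yip7 vs. AD for 4 of the 18 genes and higher levels for 0, while over all genes 0.86% were lower and 0.945% higher. The 4 were *Jon99Ci*, *Jon99Cii*, *Jon99Ciii* and *LysD*, all of which had passed the filter only through AD and could hardly come out other than lower, and of the 10 genes free of that condition 0 were called. At an unadjusted p under 0.05, 12 of the 18 differed, beside 13.1% of all genes. For AD + Yip7∆S vs. AD, the calls were 8 of 18 lower and 0 higher, against 0.983% and 0.87% of all genes. These 8 were the same 4 and *alphaTry*, *betaTry*, *epsilonTry* and *Mal-A1*, and again 12 differed at an unadjusted p under 0.05, beside 15.1% of all genes. Of these 8, all but *alphaTry* and *Mal-A1* had passed the filter only through AD, so neither count is read against the share of all genes. Median log2 fold changes of the 18 genes were -1.38 and -2.20, with 0.02 over all genes in each comparison. The medians include the same genes that passed only through AD, so they are not read against all genes either.

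**Figure D3:**
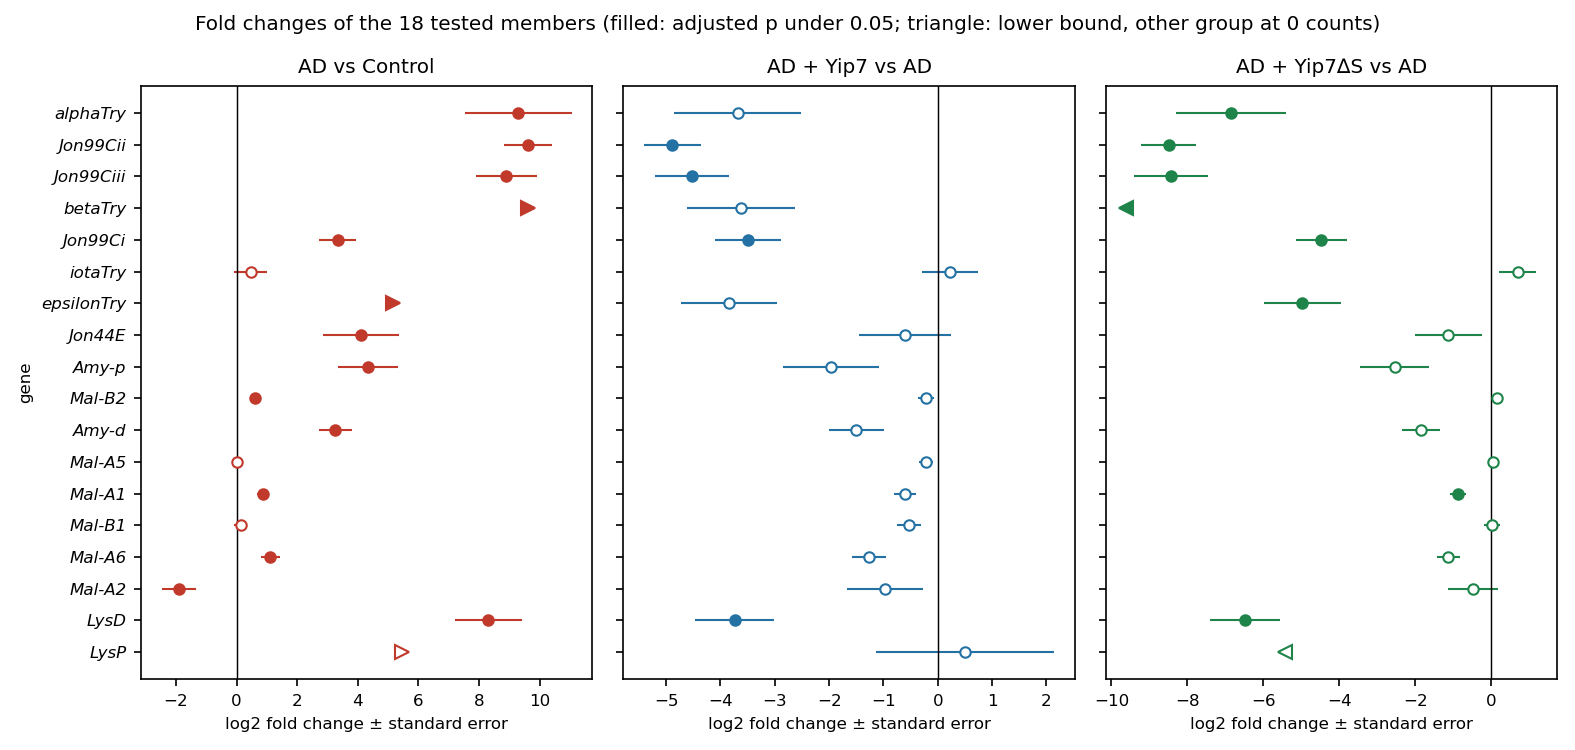
Log2 fold changes of the 18 tested genes in 3 comparisons (x axis, log2 fold change with standard error, from edgeR, with its own range in each panel; y axis, gene). Filled symbols mark an adjusted p under 0.05 and triangles mark the bound of a gene with 0 counts in the other group. 13 genes are filled to the right and 1 to the left in AD vs. Control, 4 are filled to the left for AD + Yip7 and 8 for AD + Yip7∆S.

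The 99C proteases, which entered the test through their AD level, were lower than AD in every library of both Yip7 groups. In AD + Yip7, *Jon99Cii* was at 0.106, 2.00 and 0.661 CPM, every library below every AD library (log2 fold change -4.88, standard error 0.52, edgeR adjusted p = 0.000375). In AD + Yip7∆S it was at 0.0710, 0.0243 and 0.130 CPM (log2 fold change -8.50, standard error 0.72, edgeR adjusted p = 4.45e-05), within or near the Control range. *Jon99Ciii* was at 0.0265, 2.23 and 0.392 CPM in AD + Yip7 (log2 fold change -4.52, standard error 0.68, edgeR adjusted p = 0.00485). Its AD + Yip7∆S libraries, at 0.0710, 0.0243 and 0.0778 CPM, were again lower still against AD (log2 fold change -8.43, standard error 0.97, edgeR adjusted p = 0.00056). *Jon99Cii* and *Jon99Ciii* kept these calls in each of the 19 alternatives in which they could be tested. *Jon99Ci* fell by 3.49 on the log2 scale in AD + Yip7 (standard error 0.61, edgeR adjusted p = 0.0115), with 0.132, 0.190 and 0.0245 CPM, and by 4.47 in AD + Yip7∆S (standard error 0.68, edgeR adjusted p = 0.00511), with 0.0947, 0.0243 and 0.0519 CPM. Its AD + Yip7 call was lost without AD replicate 2, AD + Yip7 replicate 1 or AD + Yip7 replicate 3, with an adjusted p of up to 0.0528.

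Trypsin levels in AD + Yip7 were split by 1 library. *alphaTry* was at 0 and 0.441 CPM in replicates 1 and 3 of AD + Yip7 but at 15.4 CPM in replicate 2. All 3 were below AD, and the difference was not called (log2 fold change -3.68, standard error 1.16, edgeR adjusted p = 0.163). Left without replicate 2, the log2 fold change was -8.21 and the gene was called (edgeR adjusted p = 0.00463). *betaTry* repeated this pattern with 0.0265, 4.42 and 0.171 CPM (log2 fold change -3.62, standard error 1.00, edgeR adjusted p = 0.141), and without replicate 2 it was called too (log2 fold change -7.52, edgeR adjusted p = 0.000261). *epsilonTry* was at 0.0265, 0.143 and 0 CPM (log2 fold change -3.84, standard error 0.89, edgeR adjusted p = 0.0627), and it was called by DESeq2 (adjusted p = 0.00443) and with the robust spread (edgeR adjusted p = 0.0474).

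In AD + Yip7∆S, *alphaTry*, *betaTry* and *epsilonTry* were below AD in each library. *alphaTry* was at 0.0237, 1.70 and 0.0259 CPM, with replicate 2 the highest (log2 fold change -6.86, standard error 1.45, edgeR adjusted p = 0.034). *betaTry* was at 0 counts in all 3 libraries, at least 782-fold lower than AD (edgeR adjusted p = 0.0282). *epsilonTry* was at 0.0237, 0.0485 and 0 CPM (log2 fold change -4.98, standard error 1.02, edgeR adjusted p = 0.0374). These 3 calls were close to the threshold, and those of *alphaTry* and *betaTry* were lost with a robust estimate of the spread, under which 6 members were called in place of 8. The *alphaTry* call was lost without Control replicate 3, without any single AD replicate, and without AD + Yip7∆S replicate 1 or 3, with an adjusted p of up to 0.127. For *betaTry* the calls were lost without any single AD replicate or AD + Yip7∆S replicate 1 or 3 (adjusted p up to 0.19), and for *epsilonTry* without AD replicate 2 or 3 or any single AD + Yip7∆S replicate (adjusted p up to 0.134). With 2 libraries left in a group, the count of called members in AD + Yip7∆S vs. AD went down to as few as 4. *iotaTry*, at 0.265, 0.309 and 0.171 CPM in AD + Yip7 and 0.355, 0.170 and 0.519 CPM in AD + Yip7∆S, overlapped AD in both, and so did *Jon44E*.

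Amylases were lower than AD in each library of both Yip7 groups but were not called in the fit on all 12 samples. *Amy-p* was at 76.0, 353 and 82.3 CPM in AD + Yip7 (log2 fold change -1.97, standard error 0.89, edgeR adjusted p = 0.364) and at 43.5, 254 and 46.6 CPM in AD + Yip7∆S (log2 fold change -2.54, standard error 0.90, edgeR adjusted p = 0.197). In both groups replicate 2 was several times above the other libraries. *Amy-d* was at 64.7, 192 and 79.7 CPM in AD + Yip7 (log2 fold change -1.50, standard error 0.50, edgeR adjusted p = 0.193) and at 60.1, 145 and 57.1 CPM in AD + Yip7∆S (log2 fold change -1.85, standard error 0.51, edgeR adjusted p = 0.0927). *Amy-d* was called in AD + Yip7∆S vs. AD when only the 6 samples compared were fitted (edgeR adjusted p = 0.048) and without AD + Yip7∆S replicate 2 (edgeR adjusted p = 0.0403). With the second libraries of both Yip7 groups left out, an alternative chosen after the values were seen, *Amy-d* was called in both comparisons (edgeR adjusted p = 0.0374 and 0.0196) and *Amy-p* in AD + Yip7∆S vs. AD (edgeR adjusted p = 0.0344).

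Among maltases, *Mal-A1* was at 5.54, 8.05 and 6.71 CPM in AD + Yip7 (log2 fold change -0.60, standard error 0.20, edgeR adjusted p = 0.179) and at 7.03, 4.76 and 5.03 CPM in AD + Yip7∆S (log2 fold change -0.87, standard error 0.20, edgeR adjusted p = 0.0435). The second of these calls was lost in 10 of 20 alternatives, with an adjusted p of up to 0.156. It was lost, among others, without Control replicate 3, any single AD replicate, AD + Yip7 replicate 3, or AD + Yip7∆S replicate 2 or 3. *Mal-A6* had 1.32, 2.09 and 1.71 CPM in AD + Yip7 (edgeR adjusted p = 0.064) and 1.73, 2.50 and 1.43 CPM in AD + Yip7∆S (edgeR adjusted p = 0.0939). All 6 libraries were below AD, and DESeq2 called the gene in both comparisons (adjusted p = 0.00343 and 0.0115). *Mal-B2*, *Mal-A5*, *Mal-B1* and *Mal-A2* overlapped AD in both Yip7 groups.

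*LysD* was at 0.927, 0.404 and 0.0490 CPM in AD + Yip7 (log2 fold change -3.74, standard error 0.73, edgeR adjusted p = 0.0209) and at 0.0473, 0.0485 and 0.104 CPM in AD + Yip7∆S (log2 fold change -6.47, standard error 0.92, edgeR adjusted p = 0.00337). No library of these groups reached the AD range. Unlike the trypsins and amylases, *LysD* was highest in replicate 1 of AD + Yip7. Its AD + Yip7 call was lost in 5 of 19 alternatives (edgeR adjusted p up to 0.0961). Among them were leaving out AD replicate 2 or AD + Yip7 replicate 2 or 3, and fitting only the 6 samples compared.

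Replicate 2 was the highest library of both Yip7 groups for the amylases and *alphaTry*, but not for every gene. Set against the AD mean, AD + Yip7 replicate 2 kept 60.6% of *Amy-d*, 52.9% of *Amy-p*, 22.9% of *betaTry*, 22.5% of *alphaTry*, 10.7% of *Jon99Ciii*, 7.19% of *Jon99Cii* and 6.60% of *LysD*. Its other libraries had 11.4% and 12.3% of *Amy-p* and at most 0.644% of *alphaTry*. Replicate 2 of AD + Yip7∆S kept 46.0% of *Amy-d* and 38.0% of *Amy-p* but 2.48% of *alphaTry*, 0.0874% of *Jon99Cii* and none of *betaTry*. For *Jon99Cii* and *Jon99Ciii* it was the lowest library of its group, at 1 count each. Among these 7 genes the amylases had the most left in both libraries, and the protease share differed between the libraries. Genes with little or no difference from AD, such as the maltases *Mal-B2* and *Mal-A5*, had more left, and *Jon44E* was at 117% and 120%. The ratio of *Amy-p* to *Amy-d* moved with the amylase shares and was 1.84 and 1.75 in the second libraries. It was 1.17 and 1.03 in the other AD + Yip7 libraries and 0.724 and 0.816 in the other AD + Yip7∆S libraries. The labels give no batch that sets these libraries apart.

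**Figure D4:**
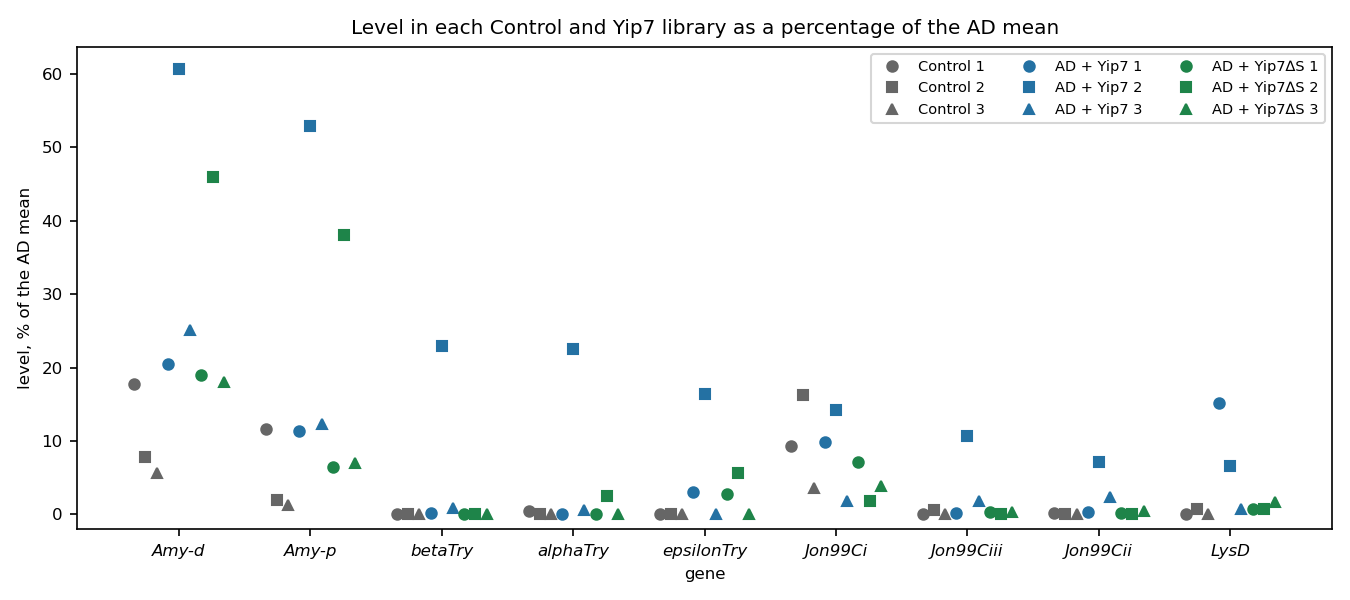
Level of 9 genes in each Control and Yip7 library as a percentage of the AD mean (y axis, linear; x axis, gene; colour, group; circle, square and triangle, replicates 1, 2 and 3). The squares of AD + Yip7 and AD + Yip7∆S lie highest for *Amy-d*, at 60.6% and 46.0%, and for *Amy-p*, and the AD + Yip7 square also stands above the other libraries for *betaTry* and *alphaTry*.

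When both Yip7 groups were set against each other, 0 of the 18 genes passed edgeR's quasi-likelihood test, while 0.0284% of all genes were higher and 0.0378% lower in AD + Yip7. At an unadjusted p under 0.05, 8 of the 18 differed, beside 10.3% of all genes. DESeq2 called 3 as higher in AD + Yip7 (*Jon99Cii*, *betaTry* and *LysP*). *LysP* rested on 1 AD + Yip7 library, with 170, 0 and 0 counts. *betaTry* rested mainly on replicate 2, with 1, 186 and 7 counts. *Jon99Cii* had the smallest p, with a log2 fold change of 3.61 (standard error 0.89, edgeR adjusted p = 0.18) and overlapping groups. It was called without AD + Yip7 replicate 1 (edgeR adjusted p = 0.0166). For the amylases the difference was 0.57 for *Amy-p* (standard error 0.86) and 0.36 for *Amy-d* (standard error 0.49), smaller than its error. The lower protease values of AD + Yip7∆S than of AD + Yip7 were therefore not shown to differ by this test, and neither were they shown to be alike.

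Against Control, AD + Yip7 had 4 genes higher and 1 lower, beside 9.13% and 5.44% of all genes. Higher were *Jon99Cii* (log2 fold change 4.73, standard error 1.04, edgeR adjusted p = 0.00893), *Jon99Ciii* (edgeR adjusted p = 0.0345), *Amy-d* (log2 fold change 1.76, edgeR adjusted p = 0.035) and *LysD* (edgeR adjusted p = 0.0359). Without AD + Yip7 replicate 2, and likewise without Control replicate 2 or 3, the count went from 5 to 2, and *Jon99Cii* and *Mal-A2* were the calls kept in each of their alternatives. AD + Yip7∆S had 1 gene higher and 1 lower, beside 10.9% and 7.94% of all genes. The higher one was *Mal-B2*, at 223, 182 and 254 CPM (log2 fold change 0.76, standard error 0.15, edgeR adjusted p = 0.00306), whose level in both AD groups with Yip7 proteins overlapped that in AD. *Mal-A2* was the lower gene in both, with 0.0530, 0.0950 and 0.147 CPM in AD + Yip7 (log2 fold change -2.89, standard error 0.62, edgeR adjusted p = 0.00762) and 0.0947, 0.121 and 0.207 CPM in AD + Yip7∆S (log2 fold change -2.40, standard error 0.59, edgeR adjusted p = 0.0132). It was the 1 member called lower than Control in every Abeta42 group. The AD + Yip7∆S call was lost in 3 of 19 alternatives (edgeR adjusted p up to 0.0641). These left out Control replicate 2, AD + Yip7∆S replicate 1 or both second Yip7 libraries.

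Other genes of the gut were read beside these. In bulk heads, fewer cells of a type and less RNA per cell cannot be told apart. Of 6 genes that mark the midgut without being digestive enzymes (*mex1*, *GATAe*, *Npc1b*, *Vha100-4*, *lab* and *cad*), 4 could be tested and 0 of these were called in AD vs. Control. Their summed level was 3.02 to 5.74 CPM in Control and 4.10 to 6.85 CPM in AD, so the groups overlapped. *GATAe*, a transcription factor of the midgut, had 51, 2 and 0 counts in Control, 26, 81 and 39 in AD, 18, 38 and 24 in AD + Yip7 and 0, 40 and 0 in AD + Yip7∆S. Control replicate 1 and AD + Yip7∆S replicate 2, the libraries of their groups with the most *Amy-p*, were also the ones with the most *GATAe*, as was AD + Yip7 replicate 2. In AD this did not hold, since replicate 2 had the most *GATAe* and replicate 1 the most *Amy-p*. Nor was the match shared by *Vha100-4* of the same list. Its count in Control replicate 1 was not the highest of that group, and AD + Yip7∆S replicate 2 had the lowest of its group. The part of these markers in the enzyme levels was not tested.

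Of 13 further gut enzymes outside the families chosen, 6 could be tested. In AD vs. Control 5 rose, beside 14.4% of all genes, namely *yip7* and the proteases *Jon65Aiii*, *Jon65Aiv*, *Phae1* and *Phae2*. Genes high in AD alone could pass the filter here too. *Jon65Aiv* had 0.199, 0 and 0.0480 CPM in Control, 47.5, 48.5 and 32.8 in AD, 0, 17.9 and 0.0735 in AD + Yip7, and 0.142, 0.849 and 0 in AD + Yip7∆S. As for *alphaTry*, the second library was the highest in both Yip7 groups. The gene was lower in AD + Yip7∆S than in AD (log2 fold change -6.99, standard error 1.55, edgeR adjusted p = 0.04). The remaining gene, *tobi*, a predicted glucosidase under the control of brain insulin, went the other way, with 232, 308 and 205 CPM in Control and 15.7, 25.7 and 72.3 CPM in AD (log2 fold change -2.71, standard error 0.55, edgeR adjusted p = 0.00332).

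Some markers of other cell types were called in these comparisons too. In AD vs. Control, 3 of 6 fat body, 2 of 4 hemocyte, 4 of 5 glial and 2 of 6 neuronal markers were lower. The same held for 1 of 6 photoreceptor markers, and 0 markers were higher. Over all genes 11.6% were lower and 14.4% higher, so the 1 photoreceptor marker is not read as a change of that list. For flight muscle 0 of 3 markers and for ovary 0 of 2 tested ones were called. The fat body gene *Lsp2*, a larval storage protein, went from 26749 to 33723 counts in Control to 453 to 847 in AD. Its counts in AD + Yip7 were 3098, 400 and 16365 and those in AD + Yip7∆S were 6406, 3308 and 6561, so the second library was the lowest in each of these groups. In AD + Yip7 vs. AD, 3 of 6 fat body markers (*apolpp*, *Yp1* and *Yp2*) were higher, beside 0.945% of all genes. The summed level of the list went from 75881 to 80184 CPM in AD to 108971 to 126032 CPM in AD + Yip7. In AD + Yip7∆S vs. AD, the fat body gene *apolpp* and the astrocyte gene *alrm* were higher and the flight muscle actin *Act88F* was lower. Over all genes 0.87% were higher and 0.983% lower. The part of these markers in the enzyme levels was not tested.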

How the data were processed

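Counts were analysed as deposited. Raw counts per gene, without normalization, were deposited by the authors, who had used fastp for read cleaning, HISAT2 for mapping and HTSeq-count for counting. The submitters' processing notes list FastQC, HISAT2 2.1.0, StringTie 1.3.1, DESeq2 1.36.0 and build dm6. The annotation and the strand setting are not given in the sources used here.

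Genes were kept by filterByExpr (minimum count 10), which left 10577 of 14162, and normalized with TMM. All 12 samples entered 1 quasi-likelihood fit (R 4.3.3, edgeR 4.0.16, limma 3.58.1) with 4 groups, without covariates, and p-values were adjusted by Benjamini-Hochberg over all genes tested at a threshold of 0.05. Standard errors were derived from the fold change and its F statistic. Replicate pairs of each group differed by more than sampling noise. The labels do not say that replicates came from separate crosses, so p-values measure the spread between these pools of heads, and floors of 3 counts cover counting error only. Members and gene lists were chosen with earlier results of these data known. Values in every sample are given for the 8 proteases, 4 sugar enzymes and 3 lysozymes with the highest mean CPM, and other genes are named where they were called outside AD vs. Control or went against their class. *Jon25Bi*, *Mal-A6*, *LysB* and the other genes named besides were chosen after their values were seen. Locations and exon lengths came from the Ensembl annotation of dm6, which held 38 of 38 members. Near-identical copies were taken from knowledge of the families, since protein sequences were not used here. The alternatives were DESeq2 1.42.0, its size factors, only the 6 samples of a comparison, no filter, 10 counts in every sample, robust spread, a replicate block and leaving out each sample. The test was checked on simulated data with known changes.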

Additional observations from a re-analysis of the deposited data

How the results depend on the processing

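Over the 18 tested genes in the 3 comparisons of AD vs. Control and of each Yip7 group vs. AD, 967 of the alternative values kept their direction and side of the threshold, 46 lost the call, 18 gained it and 10 changed sign.

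Low counts limited these results. The filter of 10 counts in every sample left 7 members to test, and the count of members called was then 5 in place of 14 in AD vs. Control, 0 in place of 4 in AD + Yip7 vs. AD, 1 in place of 8 in AD + Yip7∆S vs. AD, 1 in place of 5 in AD + Yip7 vs. Control and 1 in place of 2 in AD + Yip7∆S vs. Control. Fewer genes tested account for this. DESeq2 called 3 members in place of 0 in the direct comparison and 8 in place of 5 in AD + Yip7 vs. Control, where the fit on only 6 samples called 1 and the robust spread 3. Without both second Yip7 libraries the counts against Control were 2 for AD + Yip7 and 1 for AD + Yip7∆S. The cause was not tested. Leaving out each replicate in turn gave 2 to 5 members called in AD + Yip7 vs. AD (2 without AD replicate 2 or AD + Yip7 replicate 3), 4 to 9 in AD + Yip7∆S vs. AD, 0 to 1 in the direct comparison, 2 to 7 in AD + Yip7 vs. Control and 1 to 4 in AD + Yip7∆S vs. Control (4 without Control replicate 1, when *Amy-d* and *Amy-p* were also called), and 12 to 17 in AD vs. Control. Over all genes, DESeq2 called 449 genes against 191 in AD + Yip7 vs. AD, 495 against 196 in AD + Yip7∆S vs. AD and 135 against 7 in the direct comparison.

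Of 18 correlations between the deviations of same-numbered samples (-0.39 to 0.29), 11 were positive and 5 were over 0.1, the level set for pairing. All 5 lay between Abeta42 groups, and the highest, 0.29, was that of the second libraries of the 2 Yip7 groups. Samples were fitted as unpaired, and a replicate block was fitted as an alternative. The replicate block called 14 members in AD vs. Control and, against AD, 5 for AD + Yip7 (*epsilonTry* added, adjusted p = 0.0279) and 8 for AD + Yip7∆S (*Amy-d* added, adjusted p = 0.0458, and *Mal-A1* lost). Signs changed only for genes that were not called. The log2 fold change of *Mal-A5* in AD vs. Control ran from -0.031 (without AD replicate 3, and -0.028 without Control replicate 1) to 0.12 when single replicates were left out, and that of *Mal-B1* from -0.037 (without Control replicate 3) to 0.33. *LysP* in AD + Yip7 vs. AD was at -0.74 with the replicate block, -0.079 without AD replicate 2, and between -8.45 (without AD + Yip7 replicate 1) and 1.56 over single replicates. In AD + Yip7∆S vs. AD, these ranges were -0.019 (without AD replicate 2) to 0.12 for *Mal-A5*, -0.16 (without AD replicate 2, and -0.14 without AD + Yip7∆S replicate 3) to 0.17 for *Mal-B1*, and -0.96 to 0.34 (without AD replicate 1) for *Mal-A2*.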

Other observations

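*LysP* and the amylases were highest in different libraries. *LysP* had 170 counts in AD + Yip7 replicate 1 and 0 in replicates 2 and 3, while *Amy-p* was at 76.0 CPM in replicate 1 and at 353 CPM in replicate 2. *CG33109*, from the list of other gut genes, had 9, 1 and 43 counts in AD and 33, 1 and 9 in AD + Yip7, with its highest library of each group the same as for *LysP*. In Control and AD + Yip7∆S it had at most 3 counts in any library.

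*Vha100-4*, a proton pump subunit of the midgut, differed from the enzymes. It had 25, 17 and 27 counts in Control, 9, 33 and 10 in AD, 1, 2 and 2 in AD + Yip7 and 6, 1 and 4 in AD + Yip7∆S. Control and AD overlapped, and it was lower in AD + Yip7 than in AD (log2 fold change -3.27, standard error 0.74, edgeR's quasi-likelihood adjusted p = 0.0454) and lower than Control in both Yip7 groups (edgeR adjusted p = 0.0045 and 0.0131). The AD + Yip7 libraries, the second included, all lay below the AD libraries.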
